A study of Mus musculus with 100 samples.

Results

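The regions annotated to Mir155hg, Mir155, Mir146 and Mir21a, the loci that give rise to the microRNAs miR-155, miR-146a and miR-21, were followed through 15 ChIP-seq tables of mouse macrophages and osteoclast cultures. A region belonged to a locus when the gene named on its row was one of these 4 symbols, which took 440 of the 610301 rows: 74 for Mir155hg, 27 for Mir155, 100 for Mir146 and 239 for Mir21a. Each table lists the peaks of a single antibody, merged over its conditions, with the tags (sequenced fragment ends) of every library. The loci were chosen because the Mir155hg promoter recurred among the regions with the lowest p for KLA against vehicle, for example for HDAC3, PGC1β and ERK1. The KLA changes of the 8 factors at Mir155hg and Mir155 are therefore given as a description and without a p.

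The libraries came from bone marrow-derived macrophages (BMDMs) and osteoclast cultures of young adult mice, all of the strain named C57Bl6. Most cells were labelled wild type and were kept in vehicle (Veh) or treated for 6 h with KLA, a lipid A that activates TLR4. Antibodies against NCoR, HDAC3, PGC1β, ERK1, p65, PU.1, Fosl2 and p300 were used in Veh and KLA. A separate PGC1β series compared DMSO with Veh, DMSO with KLA, and KLA after ERKi (the ERK inhibitor LY3214996), and NCoR was also read in KLA after ERKi. H3K27ac was read in 3 experiments. The first used NCoR flox/flox cells (WT) and NCoR flox/flox, LysMCre cells (NKO), each in Veh and KLA. The second used PGC1b flox/flox cells with and without LysMCre, each in Veh and KLA. The third used wild type cells in DMSO with Veh, DMSO with KLA, and KLA with RGFP966, an HDAC3 inhibitor. In osteoclast cultures, ERK1 and p300 were read on day 0, in precursors kept in M-CSF, and on day 4. By then RANKL had been added to turn the precursors into osteoclasts. The library names of ERK1 in osteoclast cultures carry NCoRWT, except that of day 4 replicate 2, and do not say whether those cells were floxed. LysMCre deletes in myeloid cells and not in every cell to the same degree, and the floxed controls differ from the wild type cells of the other tables. H3K27ac tags do not read the deleted exons, so the genotype labels could not be checked here. Each group held 2 libraries (35 groups, 70 libraries), and nothing in the labels says whether the 2 came from separate animals, so every p below measures only the spread between these samples, which may be technical.

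The libraries held between 4.30 M and 21.5 M tags (M, mega), and levels are given as tags per 10 M tags of the library. Between 2.79% and 52.8% of a library's tags lay inside its table's regions. Replicate libraries correlated at between 0.484 and 0.978 (Pearson's r of log2 levels, across regions). The share of tags inside regions moved with some conditions, as in p65 (12.7 to 14.4% in Veh, 34.1 to 37.1% in KLA). It also moved for p300 in osteoclast cultures (3.08 to 3.16% on day 0, 9.53 to 9.61% on day 4) and for NCoR (33.3 to 34.2% in KLA, 14.97 to 15.8% with ERKi). Scaling by the regions themselves (TMM) removes such a shift, and values under TMM are given for part of the calls that it changes. A count printed without a TMM value may differ under TMM. At Mir21a, for example, the Fosl2 count went from 5 to 9 and the count for PGC1β in DMSO from 8 to 5. A region is said to have risen or fallen where edgeR's quasi-likelihood test gave an adjusted p under 0.05 over all regions of the table and the change was over 2-fold. As a check of the cell type, all 8 macrophage marker genes had regions in every table, and 5 to 8 of them had a region within 1000 bp of the start. Of 13 marker genes of T cells, B cells, erythroid cells, granulocytes and stromal cells, up to 8 had a region in a table (8 for PGC1β in Veh and KLA, 5 for p65 and p300), and no table held a region within 1000 bp of the start at more than 1. In bulk chromatin, fewer cells carrying a mark and less of the mark per cell cannot be told apart.

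MicroRNAs are short RNAs that pair through their seed, bases 2 to 8, with sites in mRNAs and lower the output of those mRNAs. In macrophages miR-155 is known as a product of TLR signalling that targets Socs1 and Inpp5d, miR-146a as a feedback regulator that targets Irak1 and Traf6, and miR-21 as an abundant microRNA that targets Pdcd4. The mature sequences below, from RefSeq on GRCm38.p6, are shown because they are the products of the 3 loci, with the seed in capitals, and 2 microRNAs from other loci that share a seed follow them.
miR-155-5p: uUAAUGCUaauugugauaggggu
miR-146a-5p: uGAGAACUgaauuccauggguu
miR-146b-5p: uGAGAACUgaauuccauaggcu
miR-21a-5p: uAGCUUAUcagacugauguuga
miR-21c: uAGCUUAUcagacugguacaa
The miR-146a-5p seed recurred in miR-146b-5p, the miR-21a-5p seed in miR-21c, and the 3 loci shared no seed with each other. Matches on a further chromosome were left out, so the list of shared seeds need not be complete. The mature miR-155-5p lies at chr16:84714143-84714165 (+ strand), miR-146a-5p at chr11:43374435-43374456 (- strand) and miR-21a-5p at chr11:86584120-86584141 (- strand).

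On mm10, the RefSeq start of the Mir155hg transcript is at chr16:84713023 (+ strand), and GENCODE places the start of a longer form at chr16:84703167. The region at the RefSeq start is called the Mir155hg promoter here, and it lies inside the longer form. Which start these cells use was not tested. The Mir155 hairpin follows at chr16:84714140-84714204, and Mrpl39 lies downstream on the other strand. The Mir146 hairpin (chr11:43374397-43374461, - strand) is intergenic. The Mir21a hairpin (chr11:86584067-86584158, - strand) overlaps the end of Vmp1, a gene of autophagosome formation, so the regions upstream of it lie in Vmp1 introns. Distances below run from the start that the tables use, with minus for upstream. For Mir146 and Mir21a that start is the hairpin and not the start of the primary transcript. Peaks of different tables within 500 bp of each other were merged to 60 sites, 12 for Mir155hg, 4 for Mir155, 16 for Mir146 and 28 for Mir21a, of which 36 were found in at least 4 tables and 9 in only 1. Regions were of unequal width, and antibodies differ in yield, so levels are compared within a table and region and not between antibodies.

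The 5 windows of 300 bases below, taken around p65 peaks, are shown because the results turn on them. Sequence is from the + strand of GRCm38.p6, and capitals mark a match to the NF-κB consensus or to the AP-1 motif TGANTCA, on either strand, the 2 kinds of match not overlapping each other. The first covers the Mir155hg promoter (chr16:84713022-84713321), the next the site 10.8 kb upstream of Mir146 (chr11:43385088-43385387), and the last 3 the Mir21a sites at +7.98 kb (chr11:86576042-86576341), -23.9 kb (chr11:86607872-86608171) and -34.5 kb (chr11:86618563-86618862).
Mir155hg promoter: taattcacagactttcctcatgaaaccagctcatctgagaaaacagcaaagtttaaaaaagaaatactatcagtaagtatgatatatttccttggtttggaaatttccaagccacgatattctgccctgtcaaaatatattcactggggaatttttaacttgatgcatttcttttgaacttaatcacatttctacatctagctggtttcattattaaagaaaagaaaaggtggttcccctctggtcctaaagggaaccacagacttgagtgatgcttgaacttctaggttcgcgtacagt
Mir146 upstream site: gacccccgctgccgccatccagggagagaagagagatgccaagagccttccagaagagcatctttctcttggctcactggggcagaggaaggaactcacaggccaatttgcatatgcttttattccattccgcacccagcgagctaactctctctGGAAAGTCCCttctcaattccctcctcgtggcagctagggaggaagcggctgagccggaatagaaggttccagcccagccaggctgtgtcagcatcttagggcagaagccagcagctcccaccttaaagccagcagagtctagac
Mir21a downstream site: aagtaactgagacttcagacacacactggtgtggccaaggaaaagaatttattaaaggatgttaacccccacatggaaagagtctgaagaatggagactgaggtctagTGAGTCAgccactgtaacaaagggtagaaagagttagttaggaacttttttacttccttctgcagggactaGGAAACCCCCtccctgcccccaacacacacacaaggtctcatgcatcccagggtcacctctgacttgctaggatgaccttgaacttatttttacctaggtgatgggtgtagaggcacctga
Mir21a site in Vmp1 intron 8: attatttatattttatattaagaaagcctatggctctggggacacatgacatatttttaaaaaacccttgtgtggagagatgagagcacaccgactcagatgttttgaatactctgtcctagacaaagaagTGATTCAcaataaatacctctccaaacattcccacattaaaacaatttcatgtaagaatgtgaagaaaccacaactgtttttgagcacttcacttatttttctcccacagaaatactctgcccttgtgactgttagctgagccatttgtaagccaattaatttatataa
Mir21a site in Vmp1 intron 7: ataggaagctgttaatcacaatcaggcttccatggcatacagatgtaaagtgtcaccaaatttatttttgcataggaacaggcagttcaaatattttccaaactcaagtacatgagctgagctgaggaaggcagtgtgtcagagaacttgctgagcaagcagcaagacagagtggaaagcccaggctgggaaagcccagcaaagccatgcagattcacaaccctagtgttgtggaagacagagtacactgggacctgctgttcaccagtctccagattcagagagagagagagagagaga
The Mir155hg promoter window and the Mir21a -34.5 kb window held no match to either motif or to the PU.1 motif GAGGAAGT. The Mir146 window held 1 NF-κB match, the Mir21a +7.98 kb window 1 NF-κB and 1 AP-1 match, and the -23.9 kb window 1 AP-1 match. Over the windows of all 30 sites with a p65 peak, an NF-κB match was found in 2, an AP-1 match in 9 and a PU.1 match in 2, while 19 held none of the 3 motifs. Among 52624 windows of the same length around all p65 peaks, 11.6% held the NF-κB match, 24.4% the AP-1 match and 10.5% the PU.1 match. Of the 9 windows with an AP-1 match, 8 were at Mir21a (of 17) and 1 was at Mir155hg (of 6). A match is a description of these letters, and a window without one is not shown to lack binding of the factor.

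The Mir155hg promoter, 0.201 kb from the RefSeq start and inside the longer GENCODE form, was nearly empty of every factor in Veh and occupied by all 8 in KLA. For p65, the NF-κB subunit that carries the activating domain, the 2 libraries held 4.38 and 5.59 tags per 10 M in Veh and 531 and 588 in KLA, a log2 difference of 6.79 (SE 0.29). For p300, the acetyltransferase that deposits H3K27ac, they held 8.78 and 16.4 in Veh and 448 and 452 in KLA, a difference of 5.16 (SE 0.22). For PU.1, a factor that defines the macrophage lineage, they held 2.07 and 3.11 in Veh and 115 and 145 in KLA, a difference of 5.63 (SE 0.29). In none of these did a KLA library come near a Veh library.

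The corepressor NCoR and its partner HDAC3, a histone deacetylase, stood at the Mir155hg promoter in KLA as well. NCoR went from 0 and 1.19 tags per 10 M in Veh to 226 and 234 in KLA, a ratio of 387 with an exact 95% counting interval of 69.2 to 15310. HDAC3 went from 0.553 and 0.727 to 273 and 397, a ratio of 483 (133 to 3998). The intervals are wide because so few tags were read in Veh, and they cover counting error only. PGC1β, known as a coactivator, went from 0 and 0.465 to 97.2 and 154, a ratio of 450 (80.1 to 17825). ERK1, a kinase of the MAPK pathway, had no tag in either Veh library and 151 and 178 tags per 10 M in KLA, at least 82.1-fold higher when the Veh group is set to a floor of 3 tags. Fosl2, a member of the AP-1 family, went from 1.41 and 2.10 to 421 and 752, a ratio of 355 (121 to 1727). Veh and KLA did not overlap for any of the 8 factors.

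**Figure D1:**
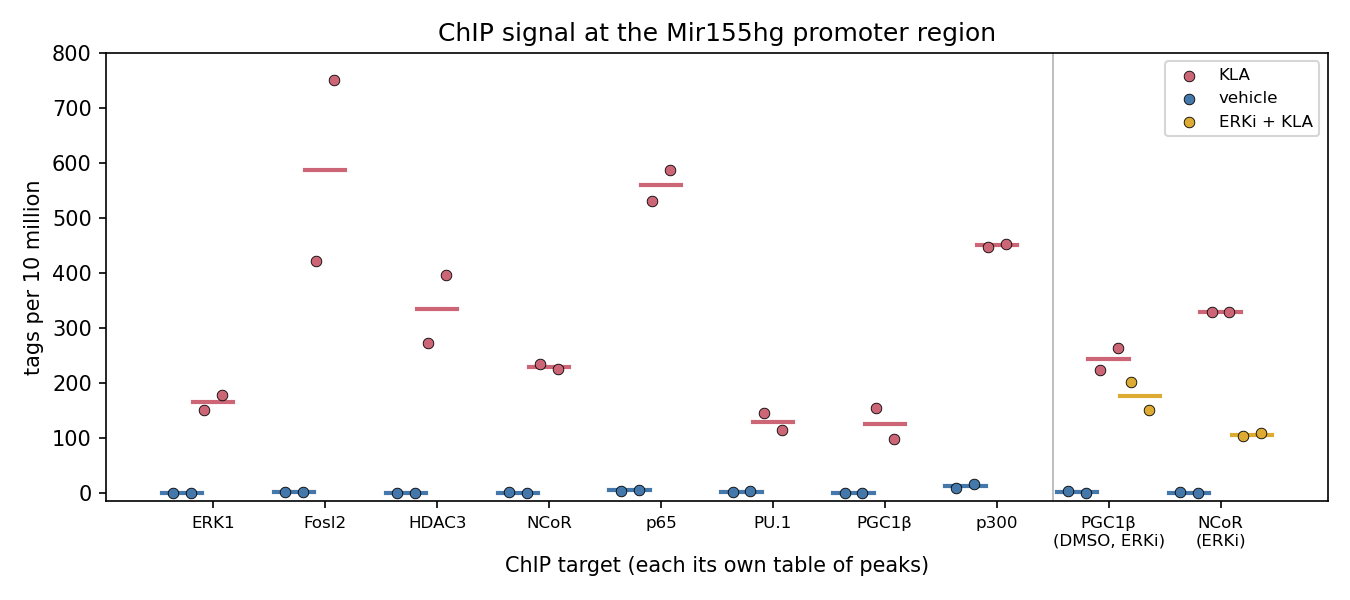
Tags per 10 M (linear axis) at the Mir155hg promoter in Veh (blue) and KLA (red) for the 8 factors, and, right of the line, for PGC1β in DMSO and NCoR with ERKi and KLA added (yellow); each point is 1 library and bars are means of 2. KLA libraries without ERKi lie at or above 97.2 for every factor, and Veh libraries at or below 16.4.

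Upstream of the RefSeq start of Mir155hg, 6 further sites found in at least 4 tables lay between -14.1 and -4.27 kb. The site at -9.9 kb spans the GENCODE start of the longer transcript. There p65 went from 2.63 and 2.80 tags per 10 M to 340 and 392, p300 from 1.31 and 1.88 to 184 and 190, HDAC3 from 6.08 and 7.27 to 169 and 270, and NCoR from 4.71 and 4.78 to 183 and 198. PU.1 already stood at 10.9 and 15.6 there in Veh and reached 90.9 and 93.0. After the promoter, this site held the highest p65, p300, HDAC3 and NCoR levels of the locus, counted per region, whose widths differ.

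At -4.27 kb of Mir155hg PU.1 stood highest of the Mir155hg regions, with 8.27 and 13.7 tags per 10 M in Veh and 166 and 181 in KLA. NCoR had no tags in either Veh library there and 94.8 and 100 in KLA, at least 54.7-fold higher. At -11.8 kb PU.1 went from 3.10 and 3.73 to 88.3 and 103, and HDAC3 from 0 and 1.45 to 61.5 and 63.9, a ratio of 101 (27.4 to 840). At -11.0 kb p65 went from 1.86 and 3.50 to 133 and 143, with no PU.1, NCoR or PGC1β peak listed. At -14.1 kb p65 went from 5.25 and 7.46 to 67.5 and 73.2, and ERK1 from 0 and 0 to 39.5 and 44.3, with no tag in Veh to set a ratio by. The factors were therefore spread unevenly over the sites, with PU.1 at 4 Mir155hg sites, the promoter among them.

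Mir155 itself held sites at the hairpin and near +4.14 kb, the latter at the Mrpl39 end. At the hairpin PU.1 went from 11.4 and 16.8 tags per 10 M in Veh to 82.4 and 97.5 in KLA, and p300 from 5.26 and 5.64 to 33.8 and 36.8. Near +4.14 kb PGC1β went from 0.465 and 1.76 to 60.1 and 64.6, p300 from 0 and 0 to 36.2 and 40.9 (at least 40.1-fold), and ERK1 from 0 and 1.16 to 59.9 and 60.2, a ratio of 90.1 (15.8 to 3598). HDAC3 had no region annotated to Mir155.

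Over all regions of Mir155hg, the number higher in KLA was 8 of 8 for p65 (57.0% of all p65 regions were called higher), 8 of 8 for p300 (42.1%), 9 of 9 for HDAC3 (27.5%), 5 of 5 for NCoR (23.4%), 6 of 6 for PGC1β (16.4%), 6 of 6 for Fosl2 (11.4%), 6 of 8 for ERK1 (10.3%) and 4 of 4 for PU.1 (4.53%). At Mir155 the counts were 1 of 1 for p65, 6 of 6 for p300, 1 of 1 for NCoR, 3 of 3 for PGC1β, 1 of 1 for Fosl2, 3 of 3 for ERK1 and 1 of 1 for PU.1. Nothing is read from these counts, since the loci were chosen on this contrast and a peak listed only because it was found in KLA had to be higher there. The Mir155hg median was 5.49 for p65 against 1.46 over all p65 regions (5.31 with a region at 0 in Veh set to its floor), and 6.43 for HDAC3 against 0.27. For PU.1 the Mir155hg median was 4.40 against -0.41 over all regions. No Fosl2 call at Mir155hg held without Fosl2 Veh replicate 1 or without replicate 2, and neither did any other Fosl2 call of that table. Only part of the ERK1 calls at Mir155hg held with every library left out in turn.

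**Figure D2:**
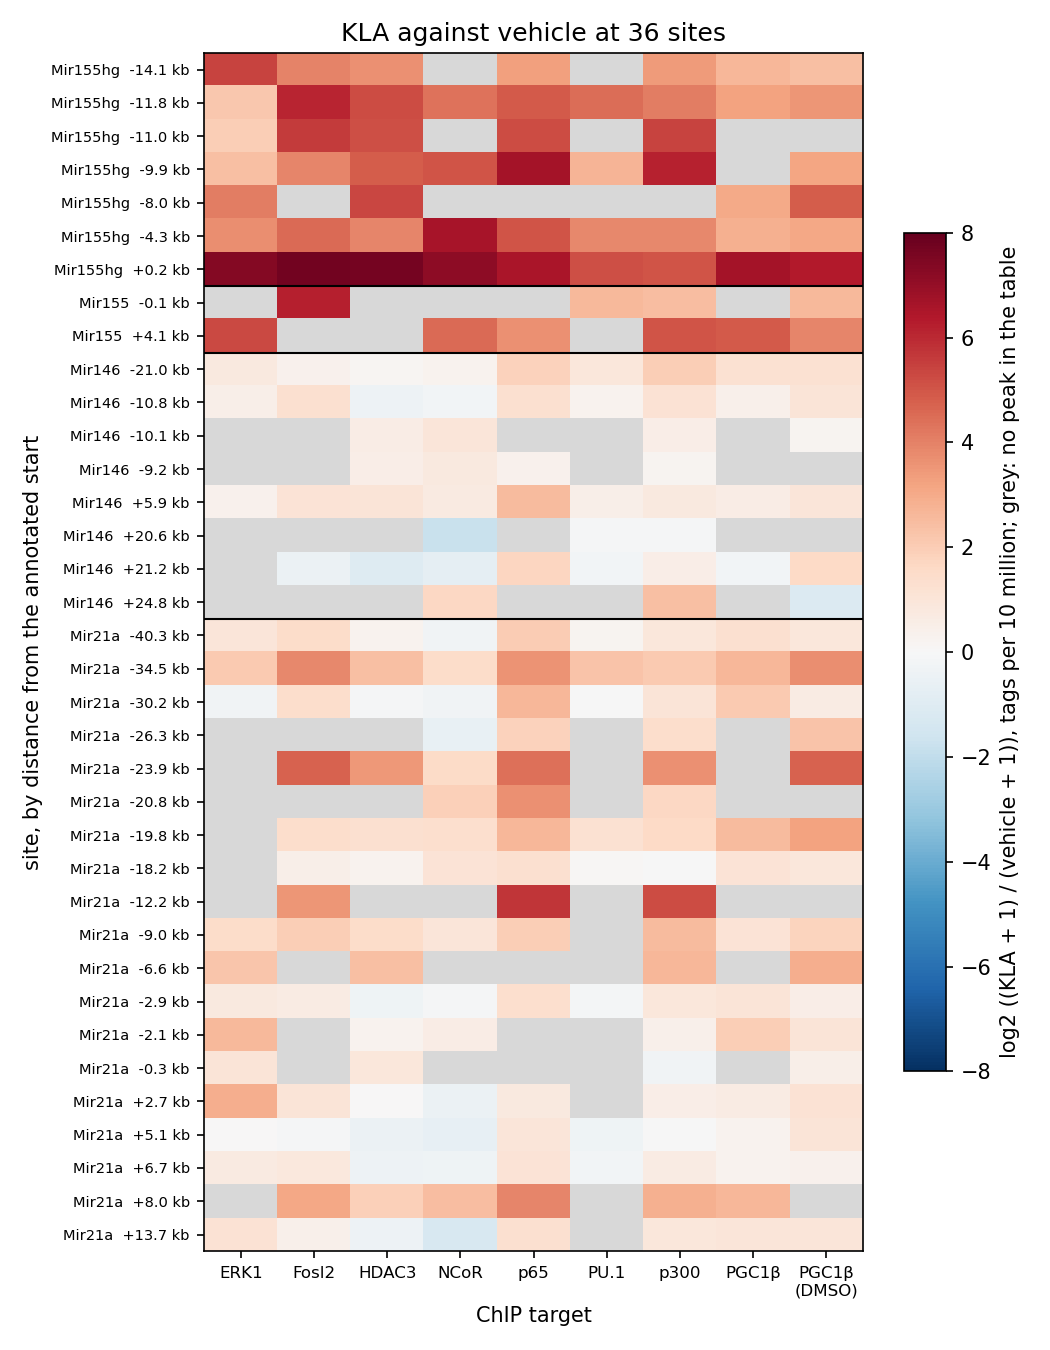
Log2 of KLA over Veh (colour; mean tags per 10 M, with 1 added to each) at each site found in at least 4 tables, by gene and distance from the annotated start, for the 8 factors and for PGC1β in DMSO; grey cells have no peak. The Mir155hg and Mir155 sites are higher in KLA wherever a peak is listed, while Mir146 and Mir21a hold raised, level and lower sites.

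The likeness of the Mir155hg promoter to others was measured over the means of the 16 factor and treatment groups, among 1177 genes with a promoter region in all 8 tables. The most alike were Ccl5 (Pearson's r 0.970 over 16 group means of log2 levels), 1600002D24Rik (0.966), Acod1 (0.962), Oasl1 (0.962) and Cp (0.921). Ccl5 encodes a chemokine and Acod1 the enzyme that makes itaconate. The 16 points share libraries with every other gene, and Mir155, Mir146 and Mir21a had no promoter region in all 8 tables.

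PGC1β was read again in separate libraries, in DMSO. The loci had been chosen for a KLA rise, of PGC1β among others, and a peak found only in KLA had to be higher there. The changes at Mir155hg and Mir155 are therefore again given as a description and without a p. At the Mir155hg promoter the level was 0 and 4.06 tags per 10 M in DMSO with Veh and 223 and 263 in DMSO with KLA. The log2 difference was 6.49 (SE 0.51) and held under TMM. At -9.9 kb PGC1β went from 0 and 7.31 to 25.7 and 53.6 (3.14, SE 0.70), a call that was lost without DMSO KLA replicate 2. At the +4.61 kb region of Mir155 it went from 0 and 4.87 to 49.1 and 53.3 (4.02, SE 0.69).

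Over the locus, 9 of 11 Mir155hg regions and 5 of 8 Mir155 regions rose in PGC1β DMSO with KLA, against 16.4% of all regions in that table. With 8 of 20 for Mir21a and 0 of 10 for Mir146, this made 22 of 49. Peaks were merged over the conditions here too, so that a peak found only in KLA had to be higher there, and 3 of the 11 Mir155hg regions and 5 of the 8 Mir155 regions held 3 tags or fewer over the Veh group. The counts are therefore given as a description. The medians were 3.17 for Mir155hg, 1.06 for Mir146 and 1.06 for Mir21a, against 0.45 over all regions and 0.01 under TMM. At the Mir146 site at -10.8 kb the level was 30.0 and 49.5 tags per 10 M in Veh and 72.9 and 94.7 in KLA (1.10, SE 0.43, adjusted p = 0.079). For Mir146 0 of 10 passed in edgeR, with 4 at an unadjusted p under 0.05 and 0 by DESeq2.

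The comparison of NKO with WT asks whether the H3K27ac response to KLA depends on NCoR. H3K27ac, a mark of active enhancers and promoters, was weak at the Mir155hg promoter and strong at its -9.9 kb site. Mir155hg had been chosen for a KLA rise. KLA changes of the mark within a genotype at Mir155hg and Mir155 are therefore a description, without a p. In the region at -9.61 kb, WT cells held 5.60 and 7.57 tags per 10 M in Veh and 135 and 136 in KLA, a rise of 4.37 (SE 0.30). NKO cells rose from 7.37 and 10.4 to 91.9 and 105 (3.43, SE 0.30). Both rises held with every library left out. The KLA level of NKO minus WT was -0.46 (SE 0.22, adjusted p = 0.33), and the interaction, the KLA change in NKO minus that in WT, was -0.94 (SE 0.48, adjusted p = 0.37). A difference between genotypes thus did not pass the test. Both NKO libraries in KLA lay below both WT libraries, and how many of all regions showed such a separation was not counted.

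At -4.27 kb of Mir155hg, WT cells rose from 1.02 and 3.15 to 13.8 and 26.2 tags per 10 M (3.26) and NKO cells from 0 and 2.90 to 8.50 and 17.4 (2.95). These calls rest on few tags: the WT call was lost without WT Veh replicate 2 or WT KLA replicate 2, and the NKO call without NKO Veh replicate 1 or NKO KLA replicate 2. At the Mir155hg promoter WT held 1.89 and 4.58 in Veh and 6.29 and 10.3 in KLA (1.31, not called). NKO held 1.47 and 3.48 against 9.56 and 15.97 there (2.28, not called, and 2.46 under TMM, where it was called). At Mir155 +3.98 kb WT went from 2 to 44 tags over the group, a ratio of 25.7 (6.70 to 219), and NKO went up by a ratio of 13.0 (3.27 to 112).

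**Figure D3:**
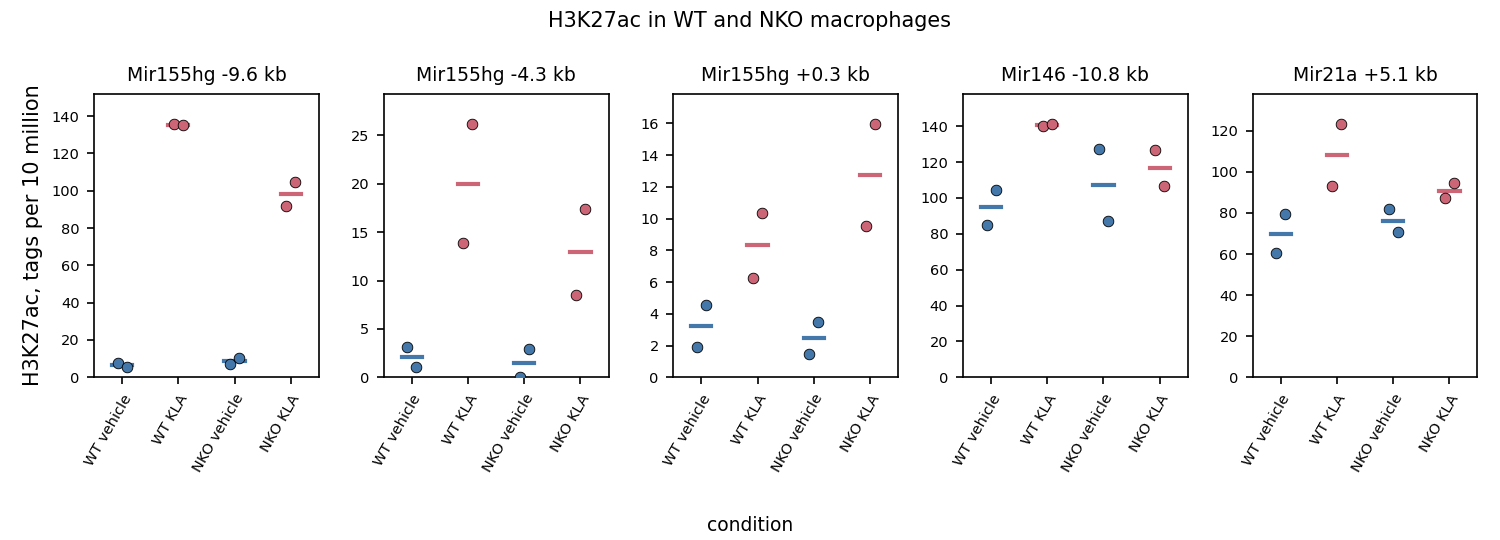
H3K27ac in tags per 10 M in WT and NKO BMDMs, Veh and KLA, at 5 regions of Mir155hg, Mir146 and Mir21a; each point is 1 library, bars are means of 2, and each panel has its own axis from 0. At Mir155hg -9.6 kb KLA libraries reach 135 and 136 in WT and 91.9 and 105 in NKO.

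At Mir146, WT H3K27ac at -10.8 kb was 85.1 and 104 tags per 10 M in Veh and 140 and 141 in KLA (0.57, adjusted p = 0.028, under 2-fold), and NKO 87.1 and 128 against 107 and 127 (0.14, adjusted p = 0.68). The interaction was -0.43 (SE 0.26, adjusted p = 0.47). At -21.1 kb WT rose from 3.57 and 11.3 to 19.5 and 27.6 (1.68, adjusted p = 0.045), a call lost under TMM (adjusted p = 0.071) and without WT Veh replicate 2, WT KLA replicate 1 or WT KLA replicate 2. NKO there held 5.22 and 18.4 in Veh and 3.47 and 7.43 in KLA, with an interaction of -2.72 (SE 0.87, adjusted p = 0.12). At +5.16 kb NKO rose from 2.21 and 8.71 to 22.8 and 31.3 (2.22, SE 0.50, adjusted p = 0.0014), lost without NKO Veh replicate 1, to the WT level in KLA of 25.2 and 31.7.

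At Mir21a in the same table H3K27ac was present in Veh, and 0 of 6 regions were called in either genotype. The log2 changes with KLA lay between -0.21 and 1.05 in WT and between -0.85 and 0.61 in NKO. At +5.09 kb WT held 60.5 and 79.5 tags per 10 M in Veh and 93.1 and 123 in KLA (0.62, adjusted p = 0.032). NKO held 70.8 and 81.8 there in Veh and 87.1 and 94.4 in KLA (0.25). At -40.3 kb NKO held 84.7 and 142 in Veh and 47.9 and 75.9 in KLA (-0.85, adjusted p = 0.016).

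Over the 14 regions of the 4 genes that passed a minimum of 16 tags (15 were listed), 4 rose in WT (6.49% of all regions rose) and 4 in NKO (2.75%). Nothing is read from these totals, which include the Mir155hg and Mir155 regions chosen for a KLA rise. At Mir146 and Mir21a alone, 1 of 10 rose in WT and 1 of 10 in NKO. In edgeR 0 of the 14 differed between NKO and WT in Veh (1.0% of all regions differed), 0 in KLA (0.789%) and 0 had an interaction (0.697%), with 2 of 14 at an unadjusted p under 0.05 in each. DESeq2 called 0 as well, but gave no adjusted p for 3, 3 and 9 of the 14 regions in turn. Without 1 library the WT count was between 1 and 3 (1 without WT KLA replicate 2) and the NKO count between 1 and 5 (1 without NKO Veh replicate 1, 2 without NKO KLA replicate 2). The median interaction was -0.31 at Mir155hg, against -0.34 over all regions and 0.0049 under TMM.

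At Mir146, p65 rose at most sites in KLA while NCoR, HDAC3 and PU.1 were already bound in Veh. The strongest region, at -10.8 kb, near the lincRNA Gm12148, held 104 and 129 p65 tags per 10 M in Veh and 264 and 313 in KLA (1.31, SE 0.21, adjusted p = 0.00031), with a difference of 0.09 under TMM that did not pass. p300 there rose from 77.5 and 96.5 to 179 and 203 (1.13, SE 0.18, adjusted p = 4.4e-05), under 2-fold with TMM (0.62) and lost without p300 Veh replicate 2. The median over all regions was 1.46 for p65, and for p300 0.65, or 0.14 under TMM.

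The other factors at the Mir146 site at -10.8 kb stayed within 2-fold. NCoR held 153 and 154 tags per 10 M in Veh and 125 and 140 in KLA (-0.21, SE 0.20, adjusted p = 0.41). HDAC3, in the neighbouring region at -11.1 kb, held 172 and 186 in Veh and 120 and 151 in KLA (-0.42, SE 0.36, adjusted p = 0.37). PU.1 held 201 and 208 in Veh and 245 and 247 in KLA (0.27, SE 0.09, adjusted p = 0.0065). NCoR, HDAC3 and PU.1 were thus present at this Mir146 site in every Veh library.

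Downstream of Mir146, at +5.90 kb, p65 rose from 38.5 and 46.6 tags per 10 M to 239 and 267 (2.57, SE 0.24, adjusted p = 7.4e-06), and the rise held under TMM (1.35) and with every library left out. HDAC3 was 86.6 and 103 in Veh and 153 and 232 in KLA there (1.00, adjusted p = 0.016, under 2-fold), and PU.1 184 and 207 against 259 and 273 (0.45). At +15.5 kb p65 went from 0 and 2.63 to 60.8 and 67.7, a ratio of 47.4 (15.98 to 232). At +20.6 kb NCoR fell from 56.5 and 75.3 to 17.8 and 18.7 (-1.84, SE 0.37, adjusted p = 0.0028), with every library left out as well.

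About 21 kb upstream of Mir146, 2 neighbouring peaks differed in their response. At -21.0 kb HDAC3 held 133 and 138 tags per 10 M in Veh and 112 and 184 in KLA (0.10, adjusted p = 0.85), while 0.4 kb nearer, at -20.6 kb, it rose from 1.66 and 5.09 to 36.3 and 100 (4.31, SE 0.60). p300 rose at both, from 32.9 and 53.9 to 170 and 173 at -21.0 kb (1.98) and from 0 and 3.13 to 68.6 and 76.2 at the neighbour (5.44, SE 0.55). Peaks were merged over Veh and KLA, so a peak found only in KLA had to be higher there. The -20.6 kb values are therefore given without a p. The difference between the 2 peaks was not tested.

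Over all regions of Mir146, 6 of 8 rose for p65 (57.0% of all regions of its table), 5 of 13 for p300 (42.1%) and 1 of 8 for HDAC3 (27.5%). For NCoR 3 of 11 rose (23.4%) and 1 was lower (16.7% of all NCoR regions were lower). For PGC1β 2 of 8 rose (16.4%) and for Fosl2 1 of 6 (11.4%). For ERK1 0 of 4 Mir146 regions rose in edgeR (10.3% of all regions), with 1 at an unadjusted p under 0.05 and 0 by DESeq2. For PU.1 it was 0 of 7 (4.53% of all regions), with 4 at an unadjusted p under 0.05 and 1 by DESeq2. Under TMM 3 of the 6 p65 calls at Mir146 were kept. By DESeq2, 0 Mir146 regions rose for PGC1β and 1 rose for NCoR. Both PGC1β calls were lost without PGC1β Veh replicate 1 or replicate 2. A peak found only in KLA had to be higher there, so the counts of risen regions at Mir146 are a description.

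Mir21a held the largest number of regions, and they fell into sites that were strong in Veh and sites that were nearly empty there. The strong ones, at +5.09, +6.73, -2.85, -30.2 and -40.3 kb, held all 8 factors or nearly so. At +5.09 kb PU.1 was 361 and 402 tags per 10 M in Veh and 295 and 296 in KLA (-0.37, SE 0.08, adjusted p = 4.7e-05), near the -0.41 median of all PU.1 regions. NCoR there was 368 and 441 in Veh and 231 and 276 in KLA (-0.68, SE 0.18, adjusted p = 0.012), and HDAC3 311 and 370 against 187 and 297 (-0.51, SE 0.39). These 3 changes stayed under 2-fold.

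At -2.85 kb of Mir21a p300 was 185 and 206 in Veh and 367 and 368 in KLA (0.91, SE 0.14, adjusted p = 2.9e-05), and HDAC3 247 and 256 against 182 and 221 (-0.33). At -40.3 kb p65 rose from 154 and 165 to 634 and 701 (2.06, SE 0.18, adjusted p = 4.7e-06), the highest p65 level of the locus, and under TMM the difference was 0.84 and under 2-fold. At +13.7 kb NCoR fell from 152 and 194 to 66.4 and 72.1 (-1.32, SE 0.23, adjusted p = 0.0014), and the fall held under TMM and with every library left out. NCoR thus fell at 1 Mir21a region and rose at 7 of 19.

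The Mir21a site at -34.5 kb, in Vmp1 intron 7, rose in all 8 factors and in PGC1β with DMSO, and these 9 calls held under TMM. For p65 it held 35.9 and 44.7 tags per 10 M in Veh and 486 and 508 in KLA (3.62, SE 0.22, adjusted p = 8.5e-07). For PU.1 it held 17.1 and 25.5 against 106 and 109 (2.35, SE 0.20, adjusted p = 4.3e-22). For NCoR it held 40.0 and 44.2 against 111 and 126 (1.49, SE 0.27, adjusted p = 0.0015). HDAC3 (2.42), PGC1β (2.68), p300 (2.10), Fosl2 (3.88) and ERK1 (2.13) rose with them. The Fosl2 call was lost without Fosl2 Veh replicate 1 or replicate 2, as was every other Fosl2 call of that table.

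Other Mir21a sites that were low in Veh carried fewer factors. A peak found only in KLA had to be higher there, so the changes at -23.9, -12.2 and +7.98 kb are a description, without a p. At -23.9 kb, the window with 1 AP-1 match, Fosl2 rose from 4.23 and 8.39 tags per 10 M to 147 and 236 (4.86, SE 0.93) and p65 from 0.932 and 14.0 to 172 and 181 (4.51, SE 0.51). HDAC3 rose there from 3.64 and 5.53 to 42.8 and 80.8 (3.65, SE 0.58), and PGC1β in DMSO from 0 and 4.87 to 79.0 and 103 (4.86, SE 0.72). No PU.1 peak was listed at -23.9 kb. At -12.2 kb p65 went from 0 and 2.80 to 120 and 133, a ratio of 93.1 (31.6 to 453), and p300 from 0.657 and 1.88 to 79.8 and 85.4.

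At +7.98 kb of Mir21a, the window with both an NF-κB and an AP-1 match, p65 rose from 7.88 and 14.9 to 173 and 200 (4.03, SE 0.34), p300 from 17.1 and 20.7 to 129 and 158 (2.92) and NCoR from 11.9 and 16.5 to 78.2 and 85.9 (2.52, SE 0.37). At -19.8 kb p65 rose from 70.9 and 102 to 502 and 599 (2.67, SE 0.22), PU.1 from 36.2 and 45.4 to 92.4 and 103 (1.27, SE 0.17, adjusted p = 6.2e-11) and PGC1β in DMSO from 17.5 and 24.4 to 174 and 237 (3.25, SE 0.38, adjusted p = 1.5e-06). In the stretch from +1.5 to +3.8 kb downstream of the hairpin, ERK1 rose from 20.5 and 30.1 to 162 and 225 at +1.52 kb (2.91, SE 0.37, adjusted p = 0.0043), and PGC1β in DMSO from 29.2 and 32.1 to 134 and 170 at +3.73 kb (2.32, SE 0.38, adjusted p = 0.00014).

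Over all Mir21a regions, 20 of 23 rose for p65 (57.0% of all regions of its table), 16 of 32 for p300 (42.1%), 12 of 18 for PGC1β (16.4%), 8 of 21 for HDAC3 (27.5%), 7 of 19 for NCoR (23.4%), 7 of 16 for ERK1 (10.3%), 5 of 18 for Fosl2 (11.4%) and 2 of 8 for PU.1 (4.53%). Mir146 and Mir21a together had risen regions in a share of 83.9% for p65, 46.7% for p300, 53.8% for PGC1β, 31.0% for HDAC3, 33.3% for NCoR, 35% for ERK1, 25% for Fosl2 and 13.3% (2 of 15) for PU.1. The HDAC3 and p300 shares lay within 5 percentage points of those of all regions. The 2 PU.1 regions were those at -34.5 and -19.8 kb. Under TMM 11 of the 20 p65 calls and 10 of the 16 p300 calls were kept. Of the 7 ERK1 calls at Mir21a, 2 held with every library left out. These counts and shares of risen regions are a description too, since a peak found only in KLA had to be higher there.

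Over the 4 loci together the numbers of regions higher in KLA were 16 of 31 for ERK1 (10.3% of all regions), 13 of 31 for Fosl2 (11.4%), 18 of 38 for HDAC3 (27.5%), 16 of 36 for NCoR (23.4%) with 2 lower, 35 of 40 for p65 (57.0%), 7 of 20 for PU.1 (4.53%), 23 of 35 for PGC1β (16.4%) and 35 of 59 for p300 (42.1%). Nothing is read from these totals, which include the Mir155hg and Mir155 regions chosen on this contrast. Some of them moved with a library left out. For Fosl2 and ERK1 the number of all regions called in the table moved in the same direction, so these moves are not particular to the 4 loci. The Fosl2 count was 0 without Veh replicate 1 or without Veh replicate 2, and 23 without KLA replicate 1. The ERK1 count was 8 without KLA replicate 1 and 10 without KLA replicate 2. The count for NCoR, in either direction, was 9 without KLA replicate 1 or KLA replicate 2, and that for PGC1β 14 without Veh replicate 1 or Veh replicate 2. Left-out libraries moved the p65 count to between 30 and 36, the p300 count to between 29 and 36, the HDAC3 count to between 13 and 23 and the PU.1 count to 7 or 8.

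Vmp1, the gene that hosts the upstream Mir21a regions, held further regions annotated to Vmp1 itself. Of these 6 of 7 rose for p65 (57.0% of all regions), 6 of 8 for HDAC3 (27.5%), 5 of 7 for PGC1β (16.4%), 4 of 8 for NCoR (23.4%), 4 of 7 for p300 (42.1%), 3 of 5 for ERK1 (10.3%), 2 of 9 for PU.1 (4.53%) and 1 of 6 for Fosl2 (11.4%).

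The ERKi libraries ask whether ERK signalling bears on the binding in KLA. With ERKi, NCoR in KLA fell at 3 of 6 Mir155hg regions, 6 of 11 Mir146 regions, 6 of 19 Mir21a regions and not at the 1 Mir155 region. At the Mir155hg promoter NCoR held 329 and 330 tags per 10 M in KLA and 103 and 109 with ERKi (-1.64, SE 0.21). The region is wider than in the first NCoR table, and its KLA libraries are the same ones. Mir155hg was chosen for a KLA rise, which makes a fall from KLA libraries more likely. Its falls are therefore a description, without a p. The library names give the KLA and the ERKi libraries different dates, and of the 2 ERKi experiments only that of PGC1β has a DMSO control in KLA, so that for NCoR the inhibitor, its solvent and the date cannot be told apart. At the Mir146 -10.8 kb site NCoR held 134 and 147 against 38.8 and 40.6 (-1.82, SE 0.24, adjusted p = 0.00014), and at Mir155hg -11.8 kb 63.6 and 68.8 against 10.1 and 12.1 (-2.56, SE 0.55). In all, 15 of 37 NCoR regions fell, against 48.6% of all regions, and the median of all regions was -1.20. Under TMM, which puts that median at -0.04, 0 of the 37 were called in edgeR and 1 by DESeq2: the promoter stood at -0.47 (adjusted p = 0.11) and the Mir146 site at -0.66 (adjusted p = 0.086). The share of tags inside regions was less than 16% with ERKi and over 33% in KLA, and its part in these falls was not tested. Without NCoR KLA replicate 1, 8 regions fell.

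PGC1β with ERKi differed from DMSO with KLA at 0 of 49 regions in edgeR (11 at an unadjusted p under 0.05, and 1 higher by DESeq2), against 0.286% of all regions. At the Mir155hg promoter the level was 223 and 263 in DMSO with KLA and 151 and 202 with ERKi (-0.47, SE 0.32, adjusted p = 0.53). At Mir155hg -9.9 kb it was 25.7 and 53.6 against 110 and 116 (1.48, SE 0.54, adjusted p = 0.21). At Mir21a -23.9 kb it was 79.0 and 103 against 31.3 and 37.5 (-1.40, SE 0.56, adjusted p = 0.26). None of these 3 differences passed, and they went in different directions.

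With RGFP966, H3K27ac in KLA fell at 3 of 7 regions of Mir146 and Mir21a, against 9.53% of all regions, while 26.9% of all regions rose. The 2 Mir146 regions among the 3 share 708 of their 1000 bp, so that the falls lie in 2 distinct places. Mir155hg and Mir155 had no region in this table. At Mir146 -10.8 kb it held 421 and 474 tags per 10 M in DMSO with Veh, 747 and 862 in DMSO with KLA and 307 and 446 with RGFP966. The difference of RGFP966 from DMSO in KLA was -1.10 (SE 0.19, adjusted p = 5.9e-08), and that of KLA from Veh 0.85 (SE 0.19, adjusted p = 2.7e-05, under 2-fold). Of the 2 RGFP966 libraries, 1 lay below both Veh libraries and the other between them. At Mir21a -2.78 kb it held 390 and 424, then 581 and 653, then 281 and 332 (-1.01, adjusted p = 8e-07). The Mir146 region at -11.1 kb, which counts many of the same tags as that at -10.8 kb, stood at -1.08 (adjusted p = 1.5e-07).

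These 3 falls held under TMM and were lost without DMSO KLA replicate 1 or without RGFP966 replicate 2, which left 0 calls. At Mir146 +5.91 kb the mark went the other way, from 96.8 and 97.1 in DMSO with KLA to 174 and 176 with RGFP966 (0.85, SE 0.22, adjusted p = 0.00041, under 2-fold). The median of all regions was 0.39 with RGFP966 and 0.0449 under TMM. In DMSO, KLA against Veh passed at 0 of 7 regions in edgeR (34.8% of all regions changed over 2-fold), with 5 at an unadjusted p under 0.05 and 3 higher by DESeq2. Macrophage marker genes (8 of 8 with a region within 1000 bp of the start) held a summed H3K27ac in those regions of 3485 to 3488 in DMSO with Veh, 3204 to 3924 in DMSO with KLA and 2474 to 2836 with RGFP966, and the part of this in the falls was not tested.

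**Figure D4:**
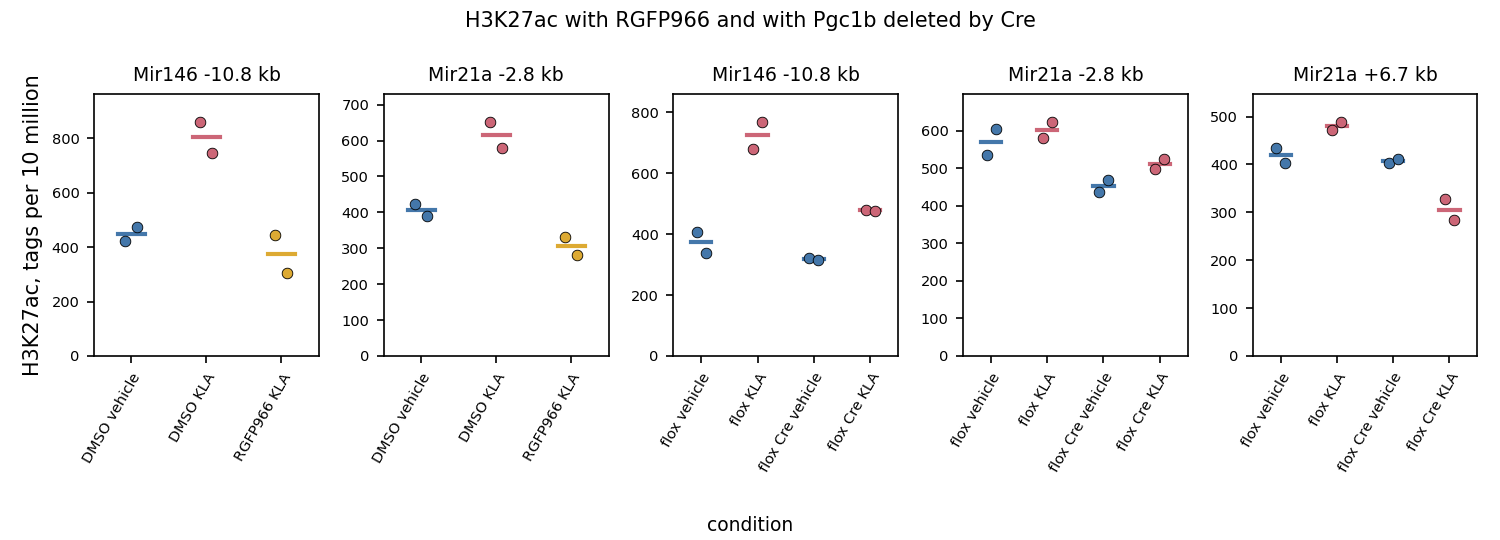
H3K27ac in tags per 10 M with RGFP966 (Mir146 -10.8 kb and Mir21a -2.8 kb) and in PGC1b flox/flox cells with and without LysMCre (Mir146 -10.8 kb, Mir21a -2.8 kb and +6.7 kb); each point is 1 library, bars are means of 2 and axes start at 0. RGFP966 libraries at Mir146 -10.8 kb hold 307 and 446, under the 747 and 862 of DMSO with KLA.

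In PGC1b flox/flox cells, the KLA change of H3K27ac at Mir146 and at 2 of the Mir21a regions was smaller, or lower, in cells with LysMCre than in cells without. At -10.8 kb the floxed cells held 337 and 408 tags per 10 M in Veh and 679 and 769 in KLA, and the LysMCre cells 315 and 322 in Veh and 477 and 480 in KLA. The interaction was -0.36 (SE 0.11, adjusted p = 0.0077) at this Mir146 region and -0.55 (SE 0.12, adjusted p = 0.00016) at -11.1 kb, where LysMCre cells held 326 and 329 in KLA and floxed cells 543 and 555. As in the RGFP966 table, these 2 windows share 708 of 1000 bp and are not separate evidence. Under TMM the first was -0.18 (adjusted p = 0.29) and the second -0.36 (adjusted p = 0.025). At both regions the 2 LysMCre KLA libraries lay below the 2 floxed KLA libraries, and how many of all regions showed this was not counted.

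At Mir21a +6.73 kb floxed cells held 404 and 434 in Veh and 473 and 489 in KLA, while LysMCre cells held 403 and 412 in Veh and 283 and 327 in KLA, an interaction of -0.62 (SE 0.12, adjusted p = 3.1e-06; -0.43 under TMM). At +4.99 kb floxed cells held 472 and 505 against 466 and 485, and LysMCre cells 466 and 472 against 313 and 339, an interaction of -0.49 (adjusted p = 0.0002; -0.30 under TMM). At Mir21a -2.78 kb, in contrast, the interaction was 0.10 (adjusted p = 0.59). At +6.73 and +4.99 kb both LysMCre libraries in KLA lay below every other library of the table, and the share of all regions that did so was not counted.

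By adjusted p alone, at any fold, the interaction passed at 4 of 7 regions, against 18.5% of all regions. No region of the 4 genes passed 2-fold in any comparison of this table. In edgeR 0 of 7 were called for KLA in floxed cells (30.8% of all regions) and 0 in LysMCre cells (36.7%), with 5 and 7 at an unadjusted p under 0.05 and 3 and 2 called by DESeq2. Between genotypes 0 were called in Veh (0.397%), 0 in KLA (7.52%) and 0 for the interaction (5.37%), with 3, 6 and 4 at an unadjusted p under 0.05 and 0 by DESeq2, which gave no adjusted p for 1 region in Veh. The median interaction of all regions was -0.18, and 0.0102 under TMM. The summed H3K27ac of the 8 macrophage markers, in regions within 1000 bp of the start, was 3387 to 3491 in floxed KLA libraries and 1698 to 1729 in LysMCre KLA libraries, and 21.97 to 22.4% of the tags of the latter lay inside regions against 29.9 to 30.1% of the former. The part of these in the interactions was not tested.

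In osteoclast cultures, p300 at Mir21a moved both ways between day 0, in precursors, and day 4, with RANKL. The direction of the calls depended on the scaling. Mir155hg and Mir155 had no region in these tables. At -40.3 kb it rose from 80.9 and 121 tags per 10 M to 218 and 230 (1.18, adjusted p = 0.0074), and at -2.88 kb from 68.1 and 107 to 204 and 229 (1.27, adjusted p = 0.0055). At -23.9 kb it rose from 0 and 5.27 to 38.6 and 39.1 (3.42), where a peak found only on day 4 had to be higher then. At +2.64 kb of Mir21a it fell from 143 and 152 to 69.2 and 76.3 (-1.02, adjusted p = 0.014), against a median of 1.84 over all regions.

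In all 7 of 20 regions of Mir146 and Mir21a rose on day 4, against 62.2% of all regions, and 1 fell, against 0.248%. Under TMM, with a median of 0.22 over all regions, 0 of the 20 rose and 6 fell. The -40.3 kb value of Mir21a turned to -0.43 and the -2.88 kb value to -0.36, and the fall at +2.64 kb became -2.64 (adjusted p = 0.0023). The shares of all regions given above were counted without TMM and are no background for the TMM counts, from which nothing is read. All 8 calls were lost without day 4 replicate 1 or without day 4 replicate 2. Osteoclast marker genes (5 of 8 with a region within 1000 bp of the start) held a summed p300 in those regions of 73.0 to 80.9 on day 0 and 343 to 426 on day 4, and macrophage markers (6 of 8) 283 to 373 and 449 to 500, and their part in the changes at Mir21a was not tested. All 8 osteoclast markers had a p300 region, and 36 of their 47 regions rose. Among them Acp5 (3.21), Nfatc1 (5.02) and Ctsk (2.10) rose at their strongest regions.

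**Figure D5:**
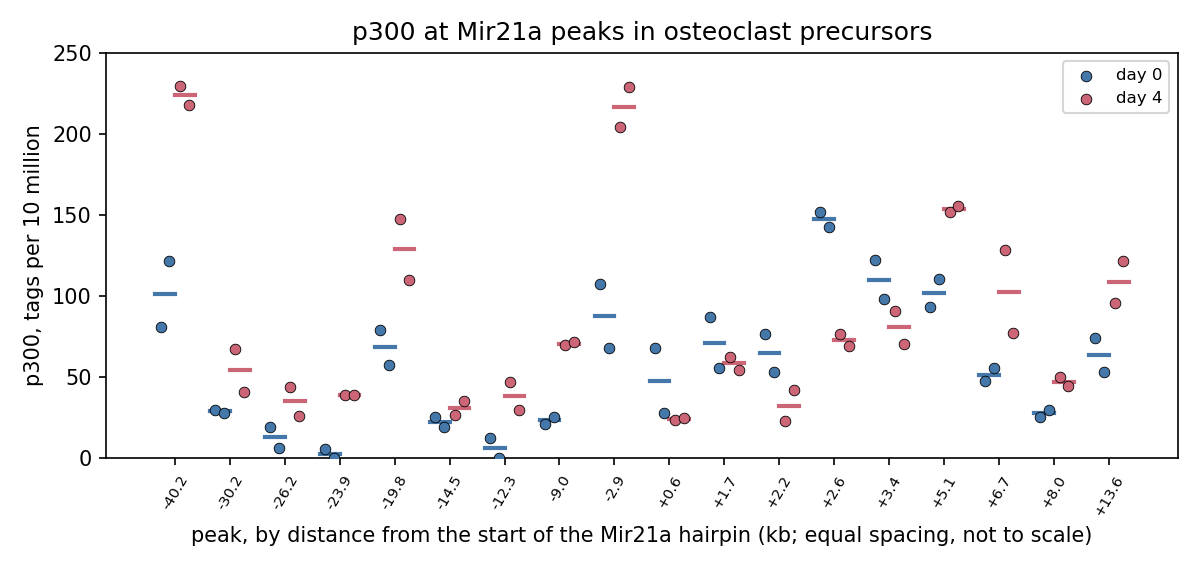
p300 in tags per 10 M at the Mir21a peaks of osteoclast cultures on day 0 (precursors) and day 4 (with RANKL), ordered by distance from the hairpin (equal spacing). Each point is 1 library and bars are means of 2. The +2.6 kb peak holds 143 and 152 on day 0 and 69.2 and 76.3 on day 4, while the -40.3 kb peak holds 80.9 and 121 against 218 and 230.

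ERK1 on day 4 passed at 0 of 15 regions in edgeR (2.35% of all regions), with 8 at an unadjusted p under 0.05 and 0 by DESeq2. At Mir21a +3.73 kb it held 0 and 10.3 tags per 10 M on day 0 and 23.9 and 77.8 on day 4 (3.18, adjusted p = 0.055). At Mir21a -16.3 kb it held 21.5 and 24.2 on day 0 and 0 and 4.67 on day 4 (adjusted p = 0.066). Without ERK1 day 0 replicate 1 or replicate 2, 1 region passed. The name of day 4 replicate 2 gives it another date than the other libraries of the table, and lacks the NCoRWT that their names carry. Day, date and this difference in name were not separated.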

How the data were processed

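Chromatin of BMDMs and osteoclast cultures was profiled by ChIP-seq. The authors aligned reads to mm10 with Bowtie2, called and annotated peaks with HOMER, kept peaks reproducible between replicates, and deposited raw tag counts per merged region, with at most 3 tags per position. The submitters' processing notes also name DESeq2. The versions are not given in the sources used here. For factors, chromatin was fixed with DSG and formaldehyde, and for H3K27ac with formaldehyde only. Input libraries (30 of the 100 samples) were not analysed here.

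Deposited counts were tested as they stand with edgeR 4.0.16 in R 4.3.3 (quasi-likelihood test, library sizes from the file headers, all groups of a table in a single fit, Benjamini-Hochberg adjustment over all tested regions). Regions without at least 4 tags (factors) or 16 tags (H3K27ac) in at least 1 library were left out. A call needed an adjusted p under 0.05 and over 2-fold. A fold against a group at 0 used a floor of 3 tags over the group, and a group of 1 to 3 tags was given a ratio with an exact 95% interval. Alternatives were TMM, the size factors of DESeq2, DESeq2 1.42.0 (Wald test), no filter, filterByExpr, a replicate block, and leaving out each library. Python 3.11.15, pandas 2.3.3 and samtools 1.23.1 were used, and the test was checked on simulated data. Depth was between 4.30 M and 21.5 M tags per library.

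The members and gene lists were chosen with earlier results of these data known, and the list of mRNA targets is not reported here. Named regions were, per table and gene, the promoter region (within 1000 bp of the start), the strongest region and the sites found in at least 4 tables. The Mir155 region at +4.61 kb, and the Mir146 regions at -20.6, +15.5 and +5.16 kb were named after their values were seen, as were the Mir21a regions at -16.3 (ERK1), +1.52 (ERK1) and +3.73 kb (PGC1β, ERK1). Replicate numbers did not pair the libraries: all 31 correlations of same-numbered deviations lay between -0.027 and 0.026. Coordinates matched the GRCm38.p6 annotation within 10 bp for 440 of 440 regions. The labels name the p300 vehicle group as KLA at 0 h, and describe ERK1 day 4 replicate 2 as replicate 3.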

Additional observations from a re-analysis of the deposited data

Results flagged for a closer look

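In the PGC1b experiment the KLA change of H3K27ac differed between cells with and without LysMCre at 4 of 7 regions, by the test of that difference itself (edgeR adjusted p, at any fold), against 18.5% of all regions. With the 2-fold threshold it was 0 of 7, against 5.37%. The 2 Mir146 windows below share 708 of their 1000 bp, so the 4 regions are 3 distinct places. The difference was -0.55 at Mir146 -11.1 kb (adjusted p = 0.00016), -0.36 at Mir146 -10.8 kb (adjusted p = 0.0077), -0.49 at Mir21a +4.99 kb (adjusted p = 0.0002) and -0.62 at Mir21a +6.73 kb (adjusted p = 3.1e-06). All 4 stayed under 2-fold. Over all regions of that table the median was -0.18, and 0.0102 with TMM. Over the 14 settings tried, the Mir21a +6.73 kb difference passed in 14, with values between -0.72 and -0.43. The Mir146 -11.1 kb and Mir21a +4.99 kb differences passed in 13 each, and the Mir146 -10.8 kb difference in 8, between -0.52 and -0.18.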

How the results depend on the processing

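For the counts of called regions of the 4 genes, 129 of 150 values under another setting and 84 of 108 with a library left out stayed within 1.5 times the value given. With TMM, DESeq2's size factors and the DESeq2 Wald test in turn, the counts became 3, 3 and 3 for H3K27ac DMSO KLA against Veh, 3, 3 and 3 for PGC1b flox KLA, 2, 2 and 2 for the LysMCre cells, 0, 0 and 1 for NCoR with ERKi, and 23, 23 and 23 for p65. For p300 on day 4 size factors and the Wald test each gave 5, all lower (TMM 6). The Wald test gave 2 for H3K27ac WT KLA, with 1 region left without an adjusted p, and 1 for PGC1β with ERKi, and without a filter 1 region was lower for NKO against WT in KLA. TMM moved the p65 median of all regions from 1.46 to 0.24. The cause of these changes was not tested. A replicate block gave 1 call for ERK1 on day 4 (0 without it) and moved no other count by over 1.5 times, and the replicate numbers did not pair the libraries. Signs reversed for the Mir21a +5.09 kb region of NCoR with ERKi (0.064, 0.0767 and 0.0777) and the Mir21a -40.3 kb region of p300 on day 4 (-0.43, -0.33 and -0.34).

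With 1 library left out, the lone library of a group being assumed to vary like the other groups, the lowest and highest counts were 0 and 1 (ERK1 day 4), 8 and 17 (ERK1), 0 and 23 (Fosl2), 13 and 23 (HDAC3), 9 and 22 (NCoR), 8 and 19 (NCoR with ERKi), 17 and 21 (PGC1β in DMSO), 0 and 0 (PGC1β with ERKi), 14 and 24 (PGC1β), 7 and 8 (PU.1), 0 and 10 (p300 day 4), 29 and 36 (p300) and 30 and 36 (p65). For H3K27ac they were 1 and 3 (WT), 1 and 5 (NKO), 0 and 1 (NKO against WT in Veh), 0 and 0 (in KLA), 0 and 1 (their interaction), 0 and 0 (DMSO), 0 and 3 (RGFP966), 0 and 2 (PGC1b flox), 0 and 0 (LysMCre) and 0 and 0 (LysMCre against flox in Veh, in KLA and their interaction). Among the named regions, 892 of 979 values kept direction and side of the threshold, 48 no longer passed, 33 newly passed and 6 reversed. Few tags in Veh limit the size of the Mir155hg changes, and 2 libraries per group limit every test.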

Other observations

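Among 24 other microRNA genes expressed in blood cells or studied in inflammation, 13 had a p65 region, and 61 of 101 such regions rose in KLA and 3 fell (57.0% of all p65 regions rose). At their strongest regions p65 rose at Mir147 (6.46), Mir29b-1 (5.06), Mir222 (3.32) and Mir146b (1.91), the last sharing its seed with miR-146a-5p. The values at Mir142 (0.96), Mir23a (0.80) and Mir223 (-0.86), the last a microRNA of myeloid cells, did not pass. H3K27ac in WT rose at 8 of 38 regions of these genes (6.49% of all), among them Mir147 (3.58, adjusted p = 1.3e-11), Mir222 (1.96) and Mir22hg (1.54).

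With RGFP966, H3K27ac in KLA rose at 8 of 31 regions of those microRNA genes and fell at 1, against 26.9% and 9.53% of all regions. At their strongest regions Mir223 (1.70) and Mir147 (1.07) rose, and Mir142 was at -0.83 (adjusted p = 3.2e-05, under 2-fold).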
